A study of Homo sapiens with 7 samples.

Results

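The small nucleolar RNA (snoRNA) host genes GAS5, SNHG1, SNHG3, SNHG5, SNHG6, SNHG7, SNHG8, SNHG12 and SNHG15 were followed in HEK293 cells depleted of nuclear poly(A) polymerases (PAPs). These 9 genes were set by name as transcripts known to be degraded in the nucleus in a manner that depends on PAPα, PAPγ and the poly(A) binding protein PABPN1, and reads on the strand of the gene were counted. Of the 16069 genes in the deposited tables, 8 carried the symbol of a member, and SNHG15 was listed under its older symbol C7orf40 with the same NCBI gene ID, 285958, so that 9 of 9 were found.

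A snoRNA host gene carries snoRNAs in its introns. After splicing, the introns are trimmed to mature snoRNAs, which guide 2′-O-methylation (box C/D) or pseudouridylation (box H/ACA) of ribosomal RNA. In a noncoding host, the joined exons form a polyadenylated RNA with no long open reading frame. That RNA is kept at low levels by nonsense-mediated decay in the cytoplasm and by decay in the nucleus, where PABPN1 stimulates PAPα and PAPγ to extend the poly(A) tail and the exosome degrades the RNA.

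HEK293 cells are a transformed human line that was derived from embryonic kidney. The 3′READS method sequences the ends of polyadenylated RNA, and each read with untemplated bases from the tail (a PASS read) marks a polyadenylation site (PAS), 1 RNA end whatever the length of the RNA. Of the 7 libraries, 4 formed batch 1, from control knockdown cells (siCtrl) and from cells with siRNA against Star-PAP (siStar-PAP, gene TUT1), PAPα (siPAPα, PAPOLA) or PAPγ (siPAPγ, PAPOLG), and the other 2, again siCtrl and siStar-PAP, formed batch 2, for which the later 3′READS+ protocol was used. The library of cells depleted of both PAPα and PAPγ (double KD) was made by 3′READS and stood in a table that repeats the siCtrl of batch 1; no batch was named for it. All libraries were from total RNA of the same line, with 1 library per condition and batch, and nothing in the sources used here says how many cultures a library came from. In such RNA, fewer cells that express a gene and less RNA per cell cannot be told apart.

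The tables held between 2347192 (siStar-PAP, batch 2) and 16191098 (siPAPα) reads on the strand of a gene. Levels are given as RPM, the reads of a gene per 1000000 PASS reads of the library, and a single read was worth between 0.0399 (siPAPα) and 0.235 RPM (siStar-PAP, batch 2). TUT1 went from 83 reads (7.26 RPM) in siCtrl to 2 (0.121 RPM) in siStar-PAP. PAPOLA went from 71 reads (6.21 RPM) to 12 (0.478 RPM) in siPAPα and 8 (0.426 RPM) in the double KD. PAPOLA was also lower in siStar-PAP of batch 1, with 44 reads (2.66 RPM), and had 66 reads (4.46 RPM) in siPAPγ. In batch 2 it had 45 reads in siCtrl and 34 in siStar-PAP, the smaller library. Whether the lower PAPOLA bears on the siStar-PAP results was not tested. PAPOLG had 5 reads in siCtrl, 15 in the library labelled siPAPγ and 6 in the double KD, and TUT1 had 6 and 4 reads in siCtrl and siStar-PAP of batch 2, so neither label could be checked. The name siPAPγ stands for that library as labelled, and each direction drawn from it rests on the label. The study also probed the depletions by immunoblot, a measure of protein not analysed here. It reports that the depletions were efficient and that each did not appear to alter the other PAPs. Of the lineage markers of HEK293, NEFL (9.85 to 41.6 RPM) and NEFM (0.235 to 11.8 RPM) had reads in 7 of 7 libraries, while PAX2 stood between 0 and 2.77 RPM and LHX1 between 0 and 1.40 RPM. PTPRC, ALB and HBB had 0 reads in each library, COL1A1 had 0 to 12, and CD79A had 13 reads in the double KD and 0 elsewhere.

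Most members end at a canonical signal. The sequences that follow are the 40 nt that end at the PAS, 5′ to 3′ on the strand of the gene (hg19, read from GRCh37), and are shown because the results turn on which of these ends was used. Capitals mark AATAAA or, where the window holds none, the signal variant found. Sites are numbered 5′ to 3′ within the gene.
SNHG1 site 1, chr11:62619460-62619499, minus strand: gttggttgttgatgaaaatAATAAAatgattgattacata
SNHG5 site 1, chr6:86386797-86386836, minus strand: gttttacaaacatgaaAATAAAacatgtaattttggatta
SNHG5 site 2, chr6:86386725-86386764, minus strand: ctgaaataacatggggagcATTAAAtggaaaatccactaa
SNHG3 site 1, chr1:28836107-28836146, plus strand: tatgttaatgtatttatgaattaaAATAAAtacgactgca
SNHG3 site 2, chr1:28837365-28837404, plus strand: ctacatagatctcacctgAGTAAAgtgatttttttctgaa
SNHG3 site 3, chr1:28841383-28841422, plus strand: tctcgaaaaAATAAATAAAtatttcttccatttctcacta
SNHG8 site 1, chr4:119200939-119200978, plus strand: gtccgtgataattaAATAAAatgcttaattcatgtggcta
SNHG12 site 3, chr1:28905050-28905089, minus strand: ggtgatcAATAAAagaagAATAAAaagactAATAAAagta

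The signal searched was AATAAA, failing that ATTAAA, and failing both the variants AGTAAA or also TATAAA or also CATAAA or also GATAAA or also AATATA or also AATACA or also AATAGA or also ACTAAA or also AAGAAA or also AATGAA, on the strand of the gene only. At the PAS with the most reads, 6 of 8 members held AATAAA, 1 (SNHG5, at site 2) held ATTAAA and 1 (SNHG7) held none of the 12. SNHG6 was left out of this count. Over 72453 sense PASs of the tables, 45.2% held AATAAA, 15.7% held ATTAAA without it, 20.6% held another of these signals and 18.5% held none. The trimer ATA, the core of the motif bound by Star-PAP, was counted on the same strand in the stretch from 100 to 41 nt before the PAS, and was absent before the most-read PAS of 6 of these 8 members against 40.4% of all sense PASs. Its largest number there was 2, before SNHG8 and site 2 of SNHG5. The shares over all sense PASs cover sites of any read count, and positions that differed between the deposits were counted separately. They are thus not like for like with the most-read PAS of a member. The signals and trimers are matches of letters and show no binding.

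By the GENCODE annotation lifted to hg19, every site printed above except site 3 of SNHG3 lay in an exon of its gene, and that site lay 4018 nt past the last annotated end of SNHG3, within RCC1 on the same strand. RCC1, a nuclear exchange factor for Ran, starts in the SNHG3 locus and overlaps its 3 sites, so that a read there could also come from an RNA of RCC1 cut short. SNHG5 lies within a longer annotated gene (ENSG00000271793) of the same strand. The end of SNHG12 at position 28905050 of chromosome 1 lay within the last bases of TRNAU1AP on the other strand. GAS5 spans 173827697 to 173838020 of chromosome 1 and holds 10 box C/D snoRNA genes and 1 box H/ACA gene in the RefSeq gene table (GRCh38.p14). In the same table SNHG1 holds 8 box C/D genes, SNHG5 holds 2 (SNORD50A and SNORD50B) and SNHG6 holds 1 (SNORD87). SNHG3 and SNHG7 hold 2 box H/ACA genes each, SNHG8 (SNORA24) and SNHG15 (SNORA9) hold 1 each, and SNHG12 holds 3 box H/ACA genes and 1 box C/D gene. A single PAS was listed for 5 members, and 3 PASs for 4 members (SNHG3, SNHG5, SNHG6 and SNHG12).

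In siCtrl of batch 1 the members covered more than 2 orders of magnitude. SNHG8 was the highest, at 101 RPM (95% Poisson interval 95.5 to 107), and was followed by SNHG3 at 43.7 (39.9 to 47.7). SNHG5 at 27.2 (24.3 to 30.4), GAS5 at 22.9 (20.2 to 25.9) and SNHG15 at 22.5 (19.8 to 25.4) formed the next group, in which the intervals of neighbours overlapped. SNHG1 at 5.60 (4.31 to 7.15) and SNHG6 at 3.68 (2.65 to 4.97) overlapped as well, and SNHG12 with 4 reads and SNHG7 with 3 reads were near the limit of 3 reads, which corresponds to 0.263 RPM in this library. No collapsing of amplified copies by molecular identifiers is described for these counts, so these and later intervals cover counting error only.

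**Figure D1:**
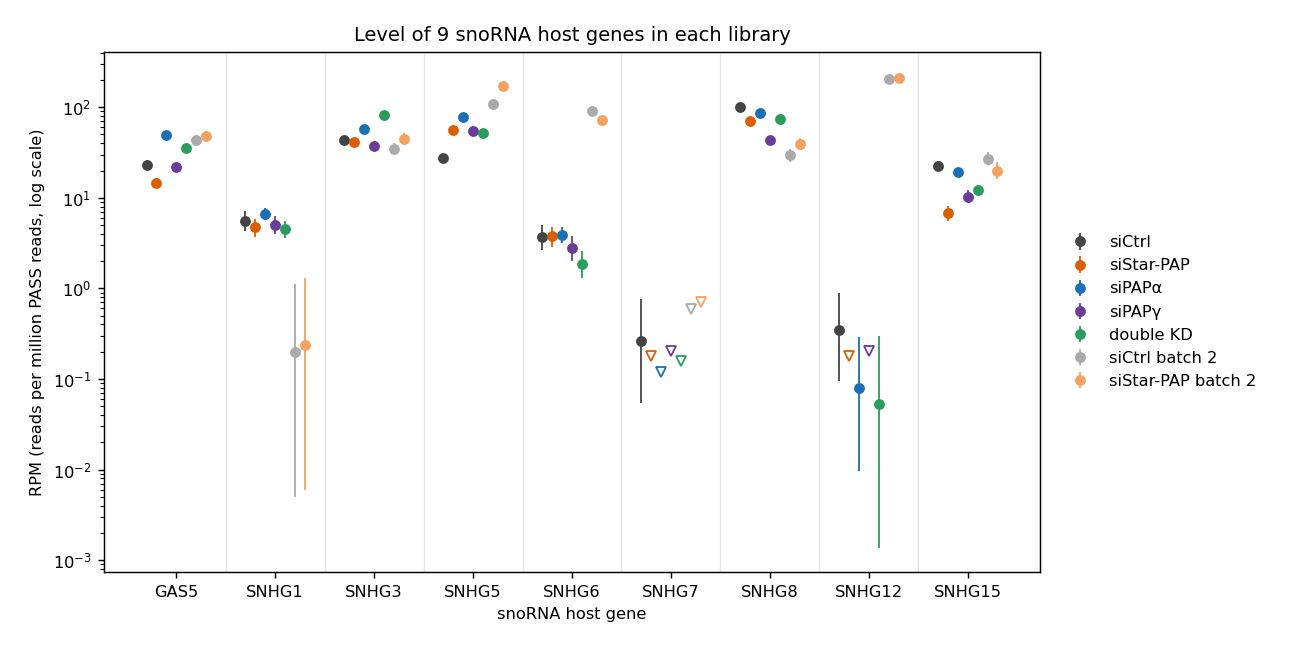
RPM of each snoRNA host gene (x axis) in the 7 libraries (colours) on a log scale, with 95% Poisson intervals; open triangles mark 0 reads and stand at the level of 3 reads. SNHG6 and SNHG12 are high and SNHG1 is low in the 2 libraries of batch 2, and SNHG5 is higher in each KD than in the siCtrl it was set against.

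Each KD library was set against the siCtrl in its table as a log2 ratio of RPM values, which for the double KD is the siCtrl of batch 1, and a gene was called when the ratio was above 2-fold with more than 50 reads in the pair. With 1 library on each side this is a description with no test, and the 4 comparisons of batch 1 and of the double KD share a single siCtrl library. The read filter was passed by 7 members in each comparison. SNHG7 never passed, SNHG12 passed in batch 2 only, and SNHG1 passed everywhere but there.

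In siPAPα, 2 of 7 members were called higher (GAS5 and SNHG5) and 0 lower, where 8.31% of 10696 genes were called higher and 22.2% lower. In siStar-PAP of batch 1, 1 member (SNHG5) was higher and 1 (SNHG15) lower, beside 4.37% and 26.2% of genes. In the library labelled siPAPγ, SNHG5 was higher and SNHG8 and SNHG15 were lower, beside 5.45% and 20.8%. In the double KD 0 members were called in either direction, beside 6.78% higher and 26.6% lower, and in siStar-PAP of batch 2 again 0, beside 3.59% and 11.8%. No test sets these counts of 0 to 2 of 7 members against the shares of all genes.

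Most genes were below siCtrl on the RPM scale, with medians over all genes tested of -0.26 in siPAPα, -0.33 in siPAPγ, -0.39 in the double KD, -0.45 in siStar-PAP and -0.17 in siStar-PAP of batch 2 (log2 ratios). The medians of the members were 0.24, -0.22, -0.33, -0.25 and 0.13 in the same order, which put them 0.50, 0.11, 0.06, 0.20 and 0.30 above the medians of all genes. In siPAPα, 7 of 7 members lay above the median of all genes, although SNHG8 and SNHG15 did so by 0.02 and 0.03, and in the other comparisons 4 or 5 of 7 did. SNHG3 and SNHG5 were above that median in 5 of 5 comparisons, SNHG1 in 4 of 4, GAS5 in 4 of 5, SNHG6 and SNHG8 in 2 of 5, and SNHG15 in 1 of 5. TMM factors in place of PASS totals moved the medians of all genes to between 0.01 and 0.08, and moved the share of higher among all called genes from 27.2% to 52.0% in siPAPα, from 20.8% to 50.5% in siPAPγ, from 20.3% to 49.4% in the double KD, from 14.3% to 47.6% in siStar-PAP and from 23.3% to 41.9% in batch 2. Changes are therefore also given relative to the median of all genes.

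**Figure D2:**
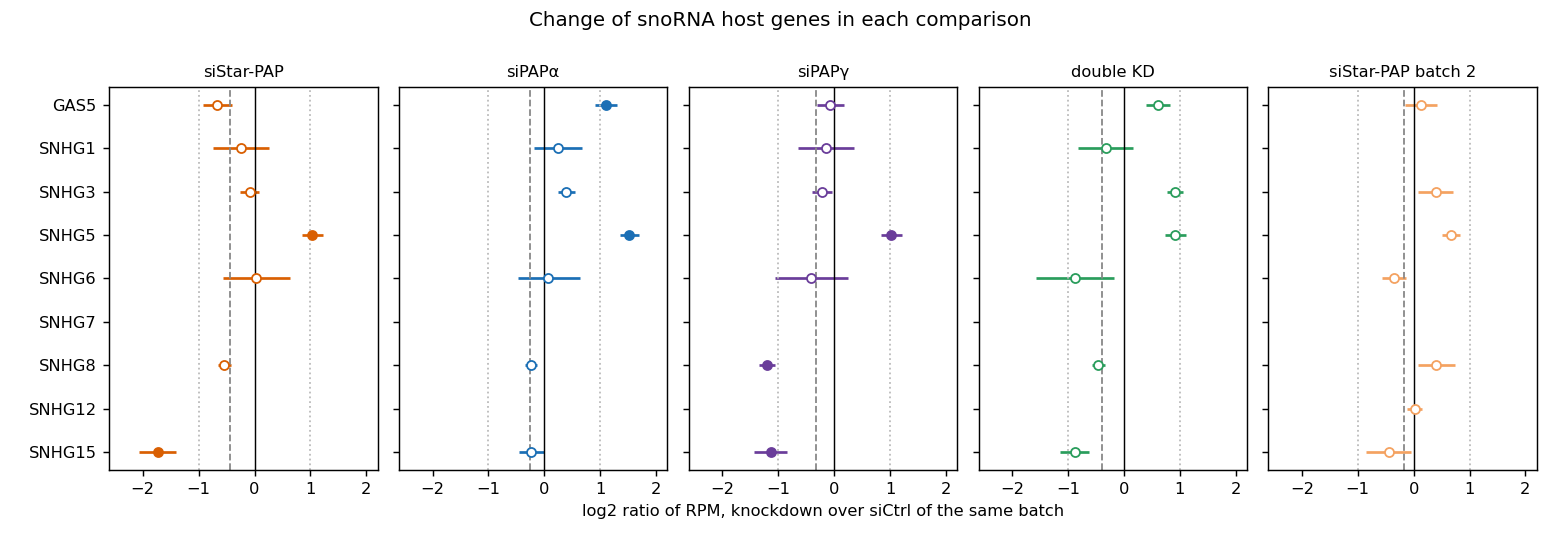
Log2 ratio of RPM, KD over the siCtrl it was set against (x axis), for the members with more than 50 reads in the pair, with 95% intervals for counting error; filled points are past 2-fold (dotted lines), and the dashed line is the median of all genes. SNHG5 stands to the right in each panel, SNHG15 to the left of 0 in each panel, and no point of siPAPα lies left of the dashed line.

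SNHG5 hosts the box C/D snoRNAs SNORD50A and SNORD50B and was the member that was higher than its siCtrl in each KD. It stood at 27.2 RPM in siCtrl, 78.2 in siPAPα, 55.2 in siPAPγ, 51.3 in the double KD and 55.7 in siStar-PAP, and in batch 2 at 109 in siCtrl and 173 in siStar-PAP. No Poisson interval of a KD overlapped that of its siCtrl (24.3 to 30.4 RPM in siCtrl of batch 1, where the lowest bound of a KD set against it was the 48.1 of the double KD). The log2 ratios were 1.52 (95% interval 1.35 to 1.70) in siPAPα, 1.03 (0.85 to 1.22) in siStar-PAP, 1.02 (0.83 to 1.21) in siPAPγ, 0.91 (0.73 to 1.10) in the double KD and 0.67 (0.51 to 0.83) in siStar-PAP of batch 2. The intervals for siStar-PAP and siPAPγ in batch 1 contain the 2-fold threshold, so those calls lay within counting error of the limit. Relative to the median of all genes the ratios were 1.79, 1.48, 1.35, 1.30 and 0.84.

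GAS5, host of 10 box C/D snoRNAs and a textbook substrate of nonsense-mediated decay, was higher with PAPα depleted. It had 22.9 RPM in siCtrl, 49.2 in siPAPα, 21.8 in siPAPγ, 35.0 in the double KD and 14.4 in siStar-PAP, and 43.6 and 47.8 in siCtrl and siStar-PAP of batch 2. The siPAPα library was the highest of batch 1, and the double KD stood between it and siCtrl. The log2 ratio was 1.10 (0.91 to 1.30) in siPAPα and 0.61 (0.40 to 0.82) in the double KD, against -0.07 (-0.31 to 0.17) in siPAPγ, -0.67 (-0.93 to -0.41) in siStar-PAP and 0.13 (-0.15 to 0.41) in siStar-PAP of batch 2. Relative to the median of all genes these were 1.36, 1.00, 0.26, -0.22 and 0.30. The ratios in siStar-PAP of the batches had opposite signs, and neither passed 2-fold.

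SNHG1, host of 8 box C/D snoRNAs of the U22 cluster, had 5.60 RPM in siCtrl, 6.62 in siPAPα, 5.07 in siPAPγ, 4.47 in the double KD and 4.71 in siStar-PAP. These 5 values lay within a narrow range, and the intervals of all 4 log2 ratios contained 0, from -0.33 (-0.81 to 0.17) in the double KD to 0.24 (-0.18 to 0.68) in siPAPα. SNHG6, host of SNORD87, had 3.68, 3.87, 2.77, 1.86 and 3.75 RPM in the same order. Its lowest value was that of the double KD, with 35 reads against 39 for siCtrl in the same table, a log2 ratio of -0.87 (-1.58 to -0.18) that did not pass 2-fold. With 41 to 97 reads per library in batch 1 and 35 in the double KD, a 2-fold change of SNHG6 was near the edge of what could be told from counting error.

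SNHG3, host of the box H/ACA snoRNAs SNORA73A and SNORA73B, was highest in the double KD. It had 43.7 RPM in siCtrl, 57.5 in siPAPα, 37.5 in siPAPγ, 82.3 in the double KD and 41.1 in siStar-PAP, and 34.3 and 44.9 in siCtrl and siStar-PAP of batch 2. The log2 ratio of 0.91 (0.77 to 1.06) in the double KD was the same as that of SNHG5, while those of the single KDs were 0.40 (0.25 to 0.55) for siPAPα and -0.22 (-0.40 to -0.04) for siPAPγ. Relative to the median of all genes the ratios of SNHG3 in these were 1.30, 0.66 and 0.11. RCC1, which shares the locus, had 19.6 RPM in siCtrl and in the double KD, 23.9 in siPAPα and 25.3 in siPAPγ by its own PASs. With TMM factors the ratios of SNHG3, SNHG5 and GAS5 in the double KD were 1.35, 1.35 and 1.05, so that 3 members were past 2-fold by that scaling. TMM factors also moved the median of all genes there from -0.39 to 0.05. The higher part of all called genes went from 20.3% to 49.4%, and the share of all genes past 2-fold by that scaling is not given here.

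SNHG8 and SNHG15, each host of a single box H/ACA snoRNA, were the members that were called lower. SNHG8 had 101 RPM in siCtrl, 85.7 in siPAPα, 44.0 in siPAPγ, 73.7 in the double KD and 69.6 in siStar-PAP, and 29.7 and 39.3 in siCtrl and siStar-PAP of batch 2. In batch 1 siCtrl was the highest of these libraries, whereas in batch 2 siStar-PAP was above siCtrl. Its log2 ratio was -1.20 (-1.34 to -1.06) in the library labelled siPAPγ, -0.54 (-0.66 to -0.42) in siStar-PAP, -0.46 (-0.57 to -0.34) in the double KD and -0.24 (-0.34 to -0.14) in siPAPα, and 0.40 (0.08 to 0.73) in siStar-PAP of batch 2. Relative to the median of all genes these were -0.87, -0.09, -0.07, 0.02 and 0.57. The falls of SNHG8 in siStar-PAP of batch 1, the double KD and siPAPα were thus close to that of the median gene.

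SNHG15 had 22.5 RPM in siCtrl, 19.1 in siPAPα, 10.3 in siPAPγ, 12.2 in the double KD and 6.77 in siStar-PAP, and 27.1 and 20.0 in siCtrl and siStar-PAP of batch 2. It was below its siCtrl in each KD, and lowest in siStar-PAP of batch 1. The log2 ratios were -1.73 (-2.07 to -1.41) in siStar-PAP, -1.13 (-1.43 to -0.84) in the library labelled siPAPγ, -0.88 (-1.14 to -0.62) in the double KD, -0.23 (-0.45 to -0.01) in siPAPα and -0.44 (-0.85 to -0.04) in siStar-PAP of batch 2. Relative to the median of all genes these were -1.29, -0.80, -0.49, 0.03 and -0.27. The calls in siPAPγ depended on the scaling: with TMM factors the ratios of SNHG8 and SNHG15 were -0.82 and -0.75, and 0 members were called lower there. In siStar-PAP SNHG15 stayed past 2-fold with TMM factors, at -1.25.

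SNHG12 and SNHG7 had too few reads in batch 1. SNHG12 had 4 reads in siCtrl, 2 in siPAPα, 1 in the double KD and 0 in siPAPγ and siStar-PAP of batch 1, but 1043 reads (207 RPM) in siCtrl and 888 (209 RPM) in siStar-PAP of batch 2, a log2 ratio of 0.02 (-0.11 to 0.15). SNHG7 had 3 reads in siCtrl of batch 1 and 0 in the other 6 libraries, a count of 0 for which the limit of 3 reads corresponds to 0.120 RPM in siPAPα and 0.706 RPM in siStar-PAP of batch 2 (upper Poisson bounds 0.147 and 0.868). The 3 reads of SNHG7 lay 866 nt before the nearest annotated end of the gene, so that the usual end of its RNA was not seen in these tables.

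Only siCtrl and siStar-PAP had 2 libraries each, which allowed a test across batches by edgeR (quasi-likelihood test, batch as a block, 1 residual degree of freedom). Of 11764 genes, 91 (0.774%) rose and 86 (0.731%) fell, and 0 of the 8 members tested were called at an adjusted p of 0.05. By unadjusted p, 1 member (SNHG5) was below 0.05 in the edgeR fit. Its log2 change was 1.20 (SE 0.33, edgeR Benjamini-Hochberg adjusted p = 0.0840), and it was higher in siStar-PAP in 2 of 2 batches. Each edgeR SE here is the absolute log2 change divided by the square root of the F statistic, unlike the SE that DESeq2 reports. DESeq2 called 1 member, SNHG5, with a log2 change of 1.24 (SE 0.36, adjusted p = 0.0179), and edgeR without the expression filter also called it (adjusted p = 0.0279). Both settings called more genes than the 177 of 11764 of the main fit. DESeq2 called 275 of the 5262 genes that it gave an adjusted p, and edgeR without the filter 423 of 15395. SNHG15 had a log2 change of -0.74 (SE 0.39, edgeR adjusted p = 0.398), lower in 2 of 2 batches. SNHG3 had 0.50 (SE 0.33, edgeR adjusted p = 0.519), and the other 5 members tested lay between -0.08 and 0.29. With PASS read totals as library sizes edgeR called 12 genes higher and 62 lower, in place of 91 and 86, and SNHG5 had an adjusted p of 0.219. Where the labels give no separate cultures, these p-values measure the spread between libraries, which may be technical.

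Between the control libraries, SNHG12, SNHG6, SNHG5, SNHG1 and SNHG8 differed by more than in any comparison of KD with siCtrl that passed the read filter. From siCtrl of batch 1 to siCtrl of batch 2, which differ in protocol, 61.7% of 9655 genes with more than 50 reads changed by more than 2-fold, with the middle 90% between -3.98 and 3.35 on the log2 scale. SNHG12 was 590-fold higher in batch 2 (log2 9.20, 7.84 to 11.1, above 99.6% of genes) and SNHG6 was 24.7-fold higher (log2 4.63, 4.17 to 5.12), from 42 to 459 reads. SNHG5 was 4.0-fold and GAS5 1.90-fold higher, and SNHG3 (log2 -0.35) and SNHG15 (log2 0.27) differed least. SNHG8 was 3.41-fold lower, and SNHG1 went from 64 reads to 1 (log2 -4.82, -10.1 to -2.29). The order of the members in batch 2 was therefore SNHG12, SNHG5 and SNHG6 first, at 207, 109 and 90.9 RPM, and SNHG8, first in batch 1, was sixth. The parts that protocol, batch, depth and the listing of PASs had in these differences cannot be told apart.

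**Figure D3:**
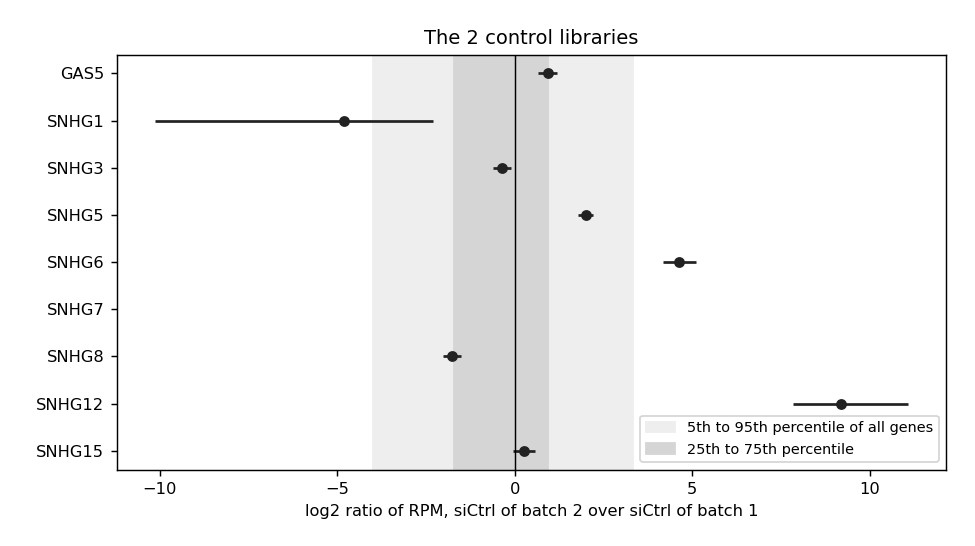
Log2 ratio of RPM in siCtrl of batch 2 to siCtrl of batch 1 (x axis) for 8 members, with 95% intervals for counting error; shaded bands give the spread of 9655 genes. SNHG12 and SNHG6 lie above the band of the middle 90% and SNHG1 below it.

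The position of the reads within SNHG12 differed as well. In batch 2, all 1043 and 888 reads were at position 28905050 of chromosome 1, the annotated end of the gene, whose window holds 3 copies of AATAAA. That position was not listed for SNHG12 in batch 1 or the double KD, so the number of reads there is not known. The ratio of SNHG12 between the controls thus compares different listed sites. The few reads of batch 1 and of the double KD lay upstream, at 28905137 and 28905081 (4 reads in siCtrl and 2 in siPAPα) and at 28905076 (1 read in the double KD), and none of the searched signals preceded the first 2 of these positions, while AATAAA began 7 nt before the last. TRNAU1AP, whose end on the other strand overlaps that of SNHG12, had 10.2 RPM in siCtrl of batch 1 and 30.7 in siCtrl of batch 2.

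PAS use could be tested for the members with several PASs, by Fisher's exact test, two-sided, which set the reads of a PAS against those of the other PASs of the gene in a pair of libraries, with Benjamini-Hochberg adjustment over all PASs of the comparison. Such a test compares libraries, not conditions. Use had changed at 2 of 10 member PASs in siPAPα, 5 of 8 in siPAPγ, 4 of 9 in the double KD, 4 of 8 in siStar-PAP and 0 of 8 in siStar-PAP of batch 2. Over all PASs tested, 36.8%, 24.3%, 35.2%, 35.5% and 5.41% had changed in these comparisons. The PASs of a gene are not independent, since a share lost at 1 site is gained at another.

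SNHG5 used 2 close PASs in batch 1, 72 nt apart, the first with AATAAA and the second with ATTAAA. Site 2 held 57.9% of the SNHG5 reads in siCtrl (180 of 311, Clopper-Pearson interval 52.2 to 63.4), 61.3% in siPAPα (59.1 to 63.5), 69.6% in siPAPγ (66.4 to 72.8), 74.2% in the double KD (71.3 to 76.9) and 81.2% in siStar-PAP (78.6 to 83.7). The distal site thus had the larger share in each KD library, by 23.4 points in siStar-PAP (exact adjusted p = 1.10e-13), 16.3 in the double KD (exact adjusted p = 1.61e-06) and 11.8 in siPAPγ (exact adjusted p = 0.00230), whereas the 3.44 points of siPAPα did not pass (exact adjusted p = 0.390). In levels, site 2 went from 15.8 RPM in siCtrl to 45.3 in siStar-PAP while site 1 stood at 11.5 and 10.5 RPM, so that the higher level of SNHG5 in siStar-PAP lay at the distal site. In siPAPα both sites were higher, site 1 at 30.3 RPM and site 2 at 48.0. In batch 2 the picture was another: site 1 held 98.7% of reads in siCtrl and 98.9% in siStar-PAP, site 2 had 4 and 7 reads, and the whole difference of siStar-PAP lay at site 1 (107 against 171 RPM).

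**Figure D4:**
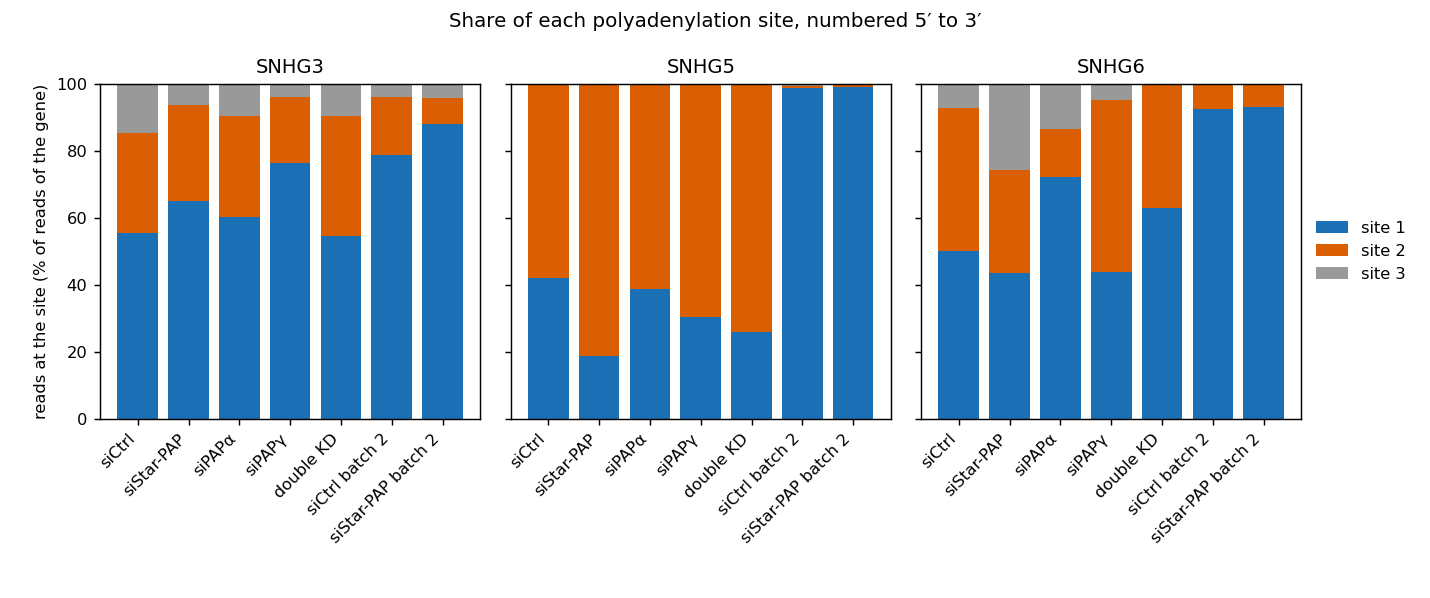
Share of reads at each PAS of SNHG3, SNHG5 and SNHG6 (y axis, % of the reads of the gene) in the 7 libraries; sites are numbered 5′ to 3′. Site 2 of SNHG5 grows from 57.9% in siCtrl to 81.2% in siStar-PAP and nearly vanishes in batch 2, and site 3 of SNHG3 shrinks in each KD of batch 1 and in the double KD.

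SNHG3 had 3 PASs, the first 2 of which lay 1258 nt apart. Site 1 held 55.5% of the reads in siCtrl (51.0 to 59.9), 60.1% in siPAPα, 76.2% in siPAPγ (72.4 to 79.7), 54.5% in the double KD and 65.0% in siStar-PAP, and 78.6% and 88.0% in siCtrl and siStar-PAP of batch 2. The share at site 1 was largest in the library labelled siPAPγ among the libraries of batch 1, by 20.7 points over siCtrl (exact adjusted p = 7.06e-11), and 9.49 points larger in siStar-PAP (exact adjusted p = 0.00566). Site 3, the one inside RCC1, fell from 14.8% in siCtrl to 9.50% in siPAPα (exact adjusted p = 0.00649), 3.96% in siPAPγ (exact adjusted p = 2.55e-08), 9.51% in the double KD (exact adjusted p = 0.00582) and 6.32% in siStar-PAP (exact adjusted p = 2.52e-05). In batch 2 it held 4.05% and 4.19%, on 7 and 8 reads.

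Site 2 of SNHG3, with the variant AGTAAA, held 29.7% in siCtrl and 36.0% in the double KD (exact adjusted p = 0.0305), and 19.8% in siPAPγ (exact adjusted p = 0.00236). In RPM the higher level of SNHG3 in the double KD lay at sites 1 and 2, which went from 24.2 to 44.8 and from 13.0 to 29.6, while site 3 stood at 6.48 and 7.82. In siStar-PAP of batch 2 the share of site 1 was 9.35 points above siCtrl, close to the 9.49 points of batch 1, and did not pass (exact adjusted p = 0.174), with 191 and 173 reads in the libraries.

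SNHG6 had 35 to 97 reads in the libraries of batch 1 and the double KD, spread over 3 PASs on chromosome 8 at 67834221, 67834169 and 67832796. The share of its second site was 42.9% in siCtrl (18 of 42 reads) and 14.4% in siPAPα (14 of 97, exact adjusted p = 0.00367), and the other comparisons of this gene did not pass. Site 3 had 16 of 62 reads in siStar-PAP against 3 of 42 in siCtrl (exact adjusted p = 0.0533). In batch 2, on 459 and 304 reads, the first site held 92.4% and 93.1%.

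Other noncoding snoRNA host genes gave 4 genes with enough reads in batch 1 and the double KD (SNHG9, SNHG10, SNHG11 and EPB41L4A-AS1), of which 0 were called in any of these comparisons. SNHG9 had 47.8 RPM in siCtrl, 25.8 in siPAPα, 31.8 in siPAPγ, 48.3 in the double KD and 31.7 in siStar-PAP, and SNHG10 had 9.54, 8.41, 6.83, 6.28 and 5.86. In siPAPα, where GAS5 and SNHG5 were higher, the log2 ratio of SNHG9 was -0.89 and that of EPB41L4A-AS1 was 0.31. In batch 2, SNHG11 was called lower, with 12 reads against 39. The genes SNHG4 and C6orf48 did not pass the filter, and the remaining genes of this list of 20 had no sense reads under these symbols.

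Protein-coding hosts, chiefly genes of ribosomal proteins and translation factors that carry snoRNAs in introns, had medians further above that of all genes than the 9 hosts did, a description with no test. In siPAPα 10 of 44 were higher and 0 lower, and their median was 0.88 above that of all genes. In siPAPγ 4 of 43 were higher and 2 lower (median 0.52 above), in the double KD 3 of 42 and 5 (0.76 above), in siStar-PAP 2 of 42 and 5 (0.71 above), and in siStar-PAP of batch 2 3 of 34 and 0 (0.47 above). Beside these counts and those of the lists that follow, 8.31% of all genes were higher and 22.2% lower in siPAPα. The shares were 5.45% and 20.8% in siPAPγ, 6.78% and 26.6% in the double KD, 4.37% and 26.2% in siStar-PAP, and 3.59% and 11.8% in batch 2. EIF4G1, the scaffold of the cap-binding complex, had 12.7 RPM in siCtrl, 46.2 in siPAPα, 43.0 in siPAPγ, 48.4 in the double KD and 4.59 in siStar-PAP, and 15.8 and 19.5 in siCtrl and siStar-PAP of batch 2. NOP58, a core protein of box C/D snoRNPs and itself a host, had 14.4, 41.6, 34.3, 28.1 and 16.4 RPM.

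Proteins that build snoRNPs were mostly within 2-fold, with at most 2 of 12 or 13 called in either direction. NHP2, of the box H/ACA snoRNPs, had 48.4 RPM in siCtrl, 19.5 in the double KD, 25.2 in siPAPα and 21.8 in siPAPγ. Of the nuclear poly(A) binding and decay factors, 0 of 9 were called in siPAPα, siPAPγ and the double KD, and 3 of 9 were lower in siStar-PAP. Of all genes, 26.2% were lower there, and the median of this list lay 0.01 above that of all genes. DIS3, an exosome nuclease, had 7.18 RPM in siCtrl and 1.45 in siStar-PAP, and 9.51 and 5.65 in siCtrl and siStar-PAP of batch 2. EXOSC2, of the exosome core, had 139 RPM in siCtrl of batch 1 and 71.6 to 102 in the KDs set against it, and 184 and 241 in siCtrl and siStar-PAP of batch 2, and was not called. In batch 2, 0 of 8 of these factors were called. Of nonsense-mediated decay factors, 3 of 10 were higher and 2 lower in siPAPα, and 2 of 9 were higher and 2 lower in siPAPγ. In the double KD, 1 of 9 was higher and 1 lower, and in siStar-PAP 1 of 8 was higher and 3 lower. In siStar-PAP of batch 2, 1 of 7 was higher and 0 lower. The median of that list minus the median of all genes was 0.72 in siPAPα, 0.50 in siPAPγ, 0.59 in the double KD and -0.05 in siStar-PAP (log2). SMG1, the kinase that phosphorylates UPF1, was lower in each KD set against siCtrl of batch 1 (54.8 RPM in siCtrl, 14.1 to 15.2 in the KDs), and these KDs share that siCtrl. In batch 2 SMG1 had 89.5 RPM in siCtrl and 49.2 in siStar-PAP. Of other long noncoding RNAs, 0 of 6 were called in siPAPα, siPAPγ and the double KD, 2 of 5 were lower in siStar-PAP, among them NEAT1 (28.9 to 6.95 RPM), and CRNDE stood at 44.5 RPM in siCtrl of batch 1 and 31.2 to 46.3 in the KDs set against it, and at 16.8 and 17.6 in siCtrl and siStar-PAP of batch 2.

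**Figure D5:**
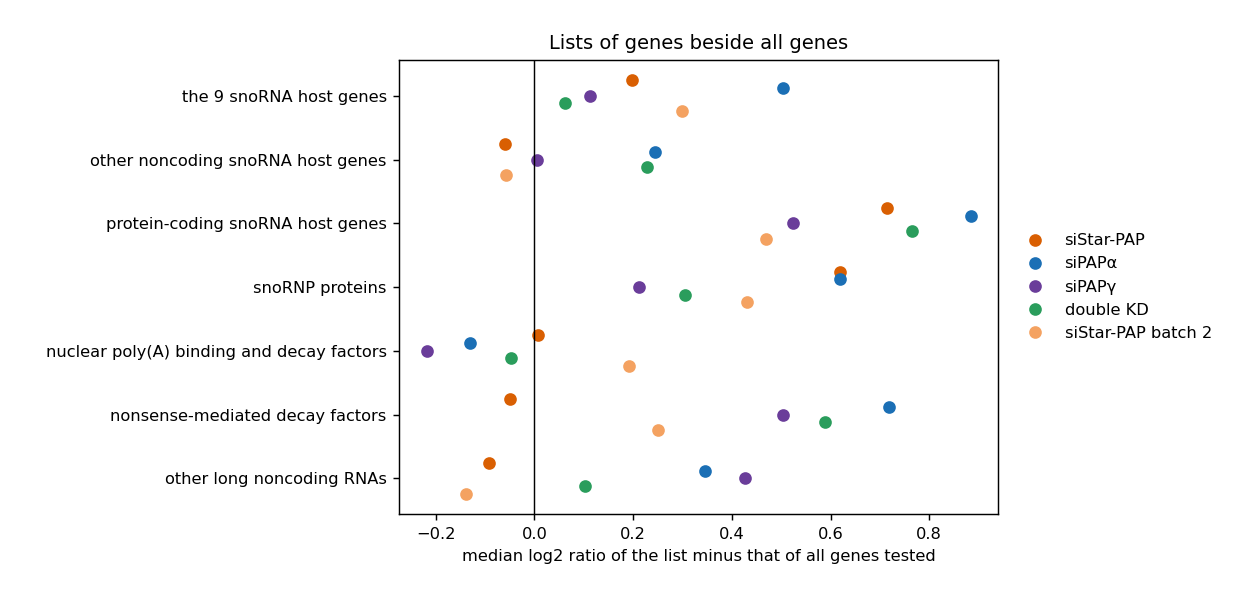
Median log2 ratio of each list of genes minus the median of all genes tested (x axis) in the 5 comparisons (colours). The snoRNA host genes, 7 of 9 tested in each comparison, lie between 0.06 and 0.50, protein-coding hosts between 0.47 and 0.88, and the nuclear decay factors on both sides of 0.

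Over the 5 log2 ratios, the genes nearest to the median of the 6 members with enough reads in each comparison were GATAD1 (distance 0.135), MPV17 (0.198), GPATCH1 (0.275), RUVBL1 (0.275) and ARMC6 (0.282), among 6350 genes. Each of these 6 members lay farther from that median, between 0.90 (SNHG3) and 2.47 (SNHG5), so that the median profile was not the profile of any of them. SNHG15 was the second farthest, at 2.07.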

How the data were processed

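The authors mapped reads of 3′READS and 3′READS+ libraries, kept uniquely mapped reads with untemplated bases of the poly(A) tail, clustered PASs within 24 nt and deposited raw read counts per PAS of RefSeq genes (hg19 and Bowtie2 by the submitters' processing notes, version not given in the sources used here). The counts were not normalized. Deposited values stood in 3 tables, and all of their 7 libraries were mapped from the labels.

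PASs on the strand of the gene were summed per gene, and a PAS listed under several genes (585, 415 and 543 rows in the tables of batch 1, batch 2 and the double KD) was counted once. RPM used the PASS read total that the study lists for each library. Calls of genes used the limits that the study set for transcripts of single PASs (above 2-fold, more than 50 reads), here applied to gene sums in a pair of libraries, and not its limits for genes. Intervals were exact at 95%, conditional binomial for ratios, Poisson for levels and Clopper-Pearson for shares. PAS use was tested by Fisher's exact test in place of the study's own program. Member PASs of different tables within 24 nt were taken as 1 site. siStar-PAP was tested over both batches with edgeR 4.0.16 (glmQLFit and glmQLFTest, TMM factors, default filter) in R 4.3.3, DESeq2 1.42.0 being an alternative. Other steps ran in Python 3.11.15 with scipy 1.17.1 and numba 0.67.0, tables were handled by pandas 2.3.3 on numpy 2.4.6, and plots were drawn by matplotlib 3.10.9.

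The replicate number marks the batch by the labels, so batch was a block. The deviations of same-numbered libraries from their group means correlated at r = 0.865 over 11764 genes, and siCtrl at 0.560 between batches against 0.913 with siStar-PAP in batch 1.

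The members and the gene lists were chosen with earlier results of these data known. Each list counts genes past the threshold and names up to 2 genes with the largest mean absolute ratio over siPAPα, siPAPγ and the double KD among those with more than 50 reads in each pair. A gene that this rule named and sequences of some PASs are not reported here. The nearest genes were those at the smallest Euclidean distance from the median of the members.

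On simulated data the edgeR step for siStar-PAP over both batches called 119 of the 200 genes that had been altered 4-fold and falsely called 4 of 11406 genes in all, and DESeq2 called 77 and falsely 2 of 11764. For siPAPα, the 2-fold call found 200 of 200 and was false for 13 of 10696 genes, and the PAS test found 200 of 200 and was false for 8 of 1039 genes. Alternatives covered the scaling, read filter, fold limit, pseudocount, kinds of PAS, source of the siCtrl counts, block and tool. Upstream antisense PASs were left out of the main values.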

Additional observations from a re-analysis of the deposited data

Results flagged for a closer look

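An upstream antisense PAS of SNHG7, outside the sense reads used for levels, had more reads in the double KD than in siCtrl. At position 139626013 of chromosome 9, on the plus strand, it had 42 reads in the double KD (2.23 RPM) and 3 in siCtrl (0.263 RPM), 8.51-fold higher with a log2 ratio of 3.09 (95% interval 1.44 to 5.42, counting error only, 1 library each). In the table of batch 1 the same position was listed as a last-exon PAS of FAM69B, with 8 reads in siPAPα, 4 in siPAPγ, 3 in siCtrl and 0 in siStar-PAP, and in batch 2 it had 10 reads in siCtrl and 7 in siStar-PAP.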

How the results depend on the processing

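SNHG5 in 3 KDs of batch 1, GAS5 in siPAPα and SNHG15 in siStar-PAP stayed past 2-fold under the scalings, the pseudocount, the read filters and the choices of PAS tried. In siPAPγ, 0 members were lower with table totals, TMM factors and DESeq2 size factors in place of 2. In the double KD, 2 members were higher with table totals, and 3 with TMM factors, DESeq2 size factors or a limit of 1.5-fold. Of all genes called there, 36.6%, 49.4%, 50.2% and 25.3% were higher in these settings, in that order, against 20.3% in the main values. The shares of all genes called in these settings are not given here. The limit of 1.5-fold also gave 2 lower in the double KD, 2 lower in siStar-PAP and 1 higher in siStar-PAP of batch 2. With no filter on reads, 4 members were lower in siPAPγ, 3 in siStar-PAP, 2 in siPAPα and 2 in the double KD. The calls beyond the main ones were those of SNHG7 and SNHG12, which had few reads there. A change of at least 10 points left 1 member PAS in siPAPα, 2 in the double KD and 2 in siStar-PAP.

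Over both batches edgeR called 177 of 11764 genes, and 0 without the replicate block (14 higher and 40 lower at an unadjusted p below 0.05). It called 74 of 11627 with PASS totals and 423 of 15395 without the filter. DESeq2 called 275 of 5262 genes with an adjusted p. Counting shared PASs in each gene, an alternative chosen after seeing the data, gave 274 calls and no other member call. Members called were 1 with DESeq2 and 1 without the filter, SNHG5 in each. The cause of these shifts was not tested. With 1 batch left out no test was possible, and the ratio of SNHG5 relative to the median of all genes ranged from 0.84 to 1.48, that of SNHG15 from -1.29 to -0.27 and that of SNHG8 from -0.09 to 0.57. Of the alternative values of these counts, 105 stayed within 1.5 times and 24 did not. There was 1 library per condition and batch, and in batch 1 SNHG7 and SNHG12 had 0 to 4 reads, SNHG6 had 41 to 97 and SNHG1 had 64 to 166, which limits what could be seen.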

Other observations

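SNHG3 had an upstream antisense PAS in batch 2, at position 28831713 of chromosome 1 on the minus strand, with 30 reads in siCtrl (5.94 RPM) and 16 in siStar-PAP (3.77 RPM). The log2 ratio was -0.66 (95% interval -1.63 to 0.26, counting error only), which contained 0. With these reads added, the ratio of SNHG3 in siStar-PAP of batch 2 was 0.28 in place of 0.39.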
